A study of Mus musculus with 10 samples.

Results

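The Ikaros family comprises the zinc finger transcription factors Ikaros (Ikzf1), Helios (Ikzf2), Aiolos (Ikzf3), Eos (Ikzf4) and Pegasus (Ikzf5), and chromatin accessibility was examined at all 5 genes in Tregs lacking Vps34 and in control Tregs. Every peak of the deposited ATAC-seq count table that lay in the body of a family gene, or within 10 kb of it by the GRCm38 annotation, was taken as a member, with no use of its accessibility. This gave 111 peaks of the 97385 in the table, and all 111 passed the filter on low counts that left 97109 peaks for testing. The assay marks open chromatin through insertion of sequencing adaptors by a transposase, so each value is a count of reads over an open region and not a measure of expression.

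Total Tregs (TCRβ+ CD4+ cells carrying the Foxp3-YFP reporter) had been sorted from 2 organs, spleen and lung, of mice aged 10 days. Vps34, the class III phosphatidylinositol 3-kinase, is encoded by Pik3c3. Vps34-deficient mice were Foxp3Cre Pik3c3fl/fl, and controls were Foxp3Cre with Pik3c3+/+ or Pik3c3+/fl, so every group carried the Foxp3-driven Cre, which acts in Foxp3-expressing cells, and a control could carry a floxed allele. The labels give 2 control and 4 Vps34-deficient libraries from spleen, and 2 control and 2 Vps34-deficient libraries from lung. The study's methods text exchanges the spleen group sizes, and the labels were followed. The study's methods give group sizes of mice, but neither they nor the labels say whether each library came from a single mouse, so p-values measure the spread between these libraries. In bulk cells, fewer cells of a type and less accessibility per cell cannot be told apart.

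Ikaros proteins bind DNA through zinc fingers near the N terminus and pair with each other through a second set of fingers near the C terminus. They act largely by recruiting the NuRD, Sin3 and CtBP corepressor complexes. Helios is kept at a high level in most Tregs of thymic origin and helps to hold their identity, Eos works with Foxp3 in gene silencing, Ikaros is needed throughout lymphoid development, and Aiolos represses Il2 in T cells. Pegasus is the most divergent member in its DNA recognition.

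Ikzf1 (ENSMUSG00000018654.17, chr11:11685003-11772926, plus strand) held 29 of the peaks, and 22 of these were intronic. Ikzf2 (ENSMUSG00000025997.13, chr1:69531214-69687245, minus strand) is the longest of the genes and held 51 peaks, 40 of them in introns. Ikzf3 (ENSMUSG00000018168.8, chr11:98464902-98546031, minus strand) held 23 peaks, 15 of them in introns, and for 15 of the 23 the nearest transcription start belonged to another gene. Ikzf4 (ENSMUSG00000002578.17, chr10:128630843-128645991, minus strand) held 6 peaks, 2 of them nearest to the start of another gene. Ikzf5 (ENSMUSG00000040167.16, chr7:131388652-131410521, minus strand) held 2 peaks. Peaks are numbered here by position along the chromosome within each gene (Ikzf3_9 is the ninth peak of Ikzf3 from the left), and 9 of the 111 lay at or within 1 kb of a start of their own gene.

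The sequences of the peaks on which the results turn are shown from the GRCm38 RefSeq assembly, on the plus strand of the chromosome. Capitals mark matches to any of 4 motifs searched on both strands, the Ikaros core TGGGAA, the AP-1 element TGANTCA, the ETS core CCGGAA and the RUNX core TGTGGT, and a match on the minus strand appears as its reverse complement. The Ikaros and ETS motifs share the letters GGAA, but no stretch of 6 bases can match both. The first 2 sequences are neighbouring Ikzf3 intron peaks, 944 bp apart, which had the largest losses in Vps34-deficient lung Tregs (chr11:98480099-98480342 and chr11:98481287-98481575).
Ikzf3_9: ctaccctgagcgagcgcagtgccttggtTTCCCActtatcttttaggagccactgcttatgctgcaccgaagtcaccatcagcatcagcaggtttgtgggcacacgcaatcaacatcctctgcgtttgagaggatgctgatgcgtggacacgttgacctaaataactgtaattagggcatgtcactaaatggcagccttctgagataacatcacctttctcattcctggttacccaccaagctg
Ikzf3_10: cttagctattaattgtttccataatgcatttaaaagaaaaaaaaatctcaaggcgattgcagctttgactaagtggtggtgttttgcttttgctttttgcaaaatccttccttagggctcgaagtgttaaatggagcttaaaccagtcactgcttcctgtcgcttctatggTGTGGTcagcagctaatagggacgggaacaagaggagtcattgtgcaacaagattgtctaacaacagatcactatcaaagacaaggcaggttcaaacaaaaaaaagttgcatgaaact
The next 3 are the peaks called higher in lung than in spleen Tregs of both genotypes, one beyond the 3′ end of Ikzf3 (chr11:98461222-98461434), one in an intron of Ikzf2 (chr1:69665234-69665443) and one in an intron of Ikzf5 (chr7:131401839-131402048).
Ikzf3_3: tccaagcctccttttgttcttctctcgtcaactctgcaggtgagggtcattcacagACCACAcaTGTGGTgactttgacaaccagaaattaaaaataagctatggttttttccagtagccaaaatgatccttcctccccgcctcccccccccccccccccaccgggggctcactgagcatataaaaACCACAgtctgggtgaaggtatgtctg
Ikzf2_40: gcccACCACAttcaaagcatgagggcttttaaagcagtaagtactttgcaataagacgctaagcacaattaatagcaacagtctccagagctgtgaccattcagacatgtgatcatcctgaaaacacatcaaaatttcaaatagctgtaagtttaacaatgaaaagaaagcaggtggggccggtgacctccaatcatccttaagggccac
Ikzf5_1: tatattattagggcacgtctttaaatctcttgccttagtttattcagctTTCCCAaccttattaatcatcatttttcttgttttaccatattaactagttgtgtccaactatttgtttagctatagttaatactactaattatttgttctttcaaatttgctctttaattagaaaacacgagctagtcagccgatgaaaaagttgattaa
The last is the central 300 bp of the single family peak called higher in Vps34-deficient Tregs, in an intron of Ikzf1 (chr11:11740575-11740874).
Ikzf1_19: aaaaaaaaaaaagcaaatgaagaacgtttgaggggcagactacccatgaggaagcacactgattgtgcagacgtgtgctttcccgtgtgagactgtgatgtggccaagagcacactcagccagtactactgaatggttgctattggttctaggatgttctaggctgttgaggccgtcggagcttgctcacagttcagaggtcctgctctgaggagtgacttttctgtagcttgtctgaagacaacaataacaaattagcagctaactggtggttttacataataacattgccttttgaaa
Ikzf3_9 and Ikzf5_1 each held 1 Ikaros core, on the minus strand. Ikzf3_10 and Ikzf2_40 each held 1 RUNX core, Ikzf3_3 held 3 RUNX cores, and Ikzf1_19 held none of the 4 motifs. Over the central 300 bp of all members, the Ikaros core was found in 26 of 111 peaks (23.4%) against 21.1% of all peaks, and the RUNX core in 34 (30.6%) against 26.5%. The AP-1 element was found in 11 members (9.91%) against 13.0% of all peaks, and the ETS core in 6 (5.41%) against 8.17%. Of the 11 members called lower in Vps34-deficient lung Tregs, in the same central windows 3 held the AP-1 element, 3 the RUNX core, 2 the Ikaros core and 1 the ETS core. These are matches of letters and do not show binding.

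The libraries held between 9405823 and 22439699 counts in peaks, and 91.5% to 96.5% of a library's peak counts were even numbers, as when both mates of a fragment are counted. Values are given as CPM (counts scaled to each library's total in peaks), in replicate order. Folds are log2 fold changes from edgeR ± SE. The SE is approximate, the size of the fold divided by the square root of the F statistic of its test. Calls required an adjusted p (Benjamini-Hochberg, over all tested peaks) below 0.05 together with a log2 fold change beyond 0.5 in either direction. All 5 Treg marker genes (Foxp3, Il2ra, Ctla4, Cd3e and Cd4) had promoter peaks, which summed to between 77.3 and 117 CPM per library. Promoter peaks were also found at 2 of 5 myeloid genes (5.29 to 10.7 CPM), 3 of 5 lung epithelial genes (25.1 to 35.5 CPM), 3 of 5 endothelial genes (26.6 to 34.4 CPM) and 3 of 5 CD8 and NK cell genes (23.6 to 39.6 CPM). Of the myeloid genes, Cd14 and Itgam had promoter peaks and Lyz2, Csf1r and Fcgr1 had none. At Pik3c3 itself the promoter peak differed between genotypes by 0.09 ± 0.09 in spleen and 0.07 ± 0.10 in lung on the log2 scale, and promoter accessibility does not check the deletion. Chromosome Y counts were 56.9 to 67.6 CPM in 5 libraries and 7.03 to 21.4 CPM in the other 5, with both kinds present in every group.

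The promoters of all 5 genes were open in every library. The Ikzf5 promoter peak (Ikzf5_2, chr7:131410016-131410887) was the highest of all members, with a mean of 77.8 CPM that exceeded 98.1% of all peaks. Its values were 82.2 and 83.3 CPM in spleen control, 72.5, 77.7, 69.4 and 79.4 in spleen Vps34-deficient, 77.2 and 87.9 in lung control and 77.6 and 70.7 in lung Vps34-deficient Tregs. The Helios promoter (Ikzf2_49, chr1:69686942-69687758) held 48.1 and 48.9 CPM in spleen control, 41.6, 46.5, 52.0 and 47.7 in spleen Vps34-deficient, 44.4 and 48.3 in lung control and 45.5 and 41.3 in lung Vps34-deficient Tregs. In both cases the ranges of tissues and genotypes lay close together.

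The strongest Ikzf1 promoter peak (Ikzf1_3, chr11:11685305-11686412) held 28.4 and 29.1 CPM in spleen control, 26.6, 26.3, 28.6 and 24.7 in spleen Vps34-deficient, 17.6 and 27.0 in lung control and 30.0 and 19.7 in lung Vps34-deficient Tregs. The Eos promoter (Ikzf4_5, chr10:128645271-128646282) held 16.4 and 13.4, then 15.7, 19.8, 18.6 and 18.1, then 10.7 and 16.9, then 20.1 and 14.8 CPM in the same order of groups. The Aiolos promoter (Ikzf3_22, chr11:98545695-98546128) was the lowest, at 6.86 and 6.89, then 8.42, 7.71, 7.76 and 9.47, then 5.10 and 10.9, then 8.37 and 8.26 CPM. Replicates of the lung groups were spread more widely than those of spleen at the Ikzf1 and Ikzf4 promoters.

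None of these promoters was called by genotype or by tissue. The average genotype effect, Vps34-deficient minus control with tissue as a covariate, ranged from -0.16 ± 0.07 at Ikzf5 to 0.29 ± 0.14 at Ikzf4, with adjusted p = 0.133 and 0.184 in edgeR. The average tissue effect, lung minus spleen, ranged from -0.14 ± 0.12 at Ikzf1 to 0.17 ± 0.18 at Ikzf3, and its sign at the Ikzf2, Ikzf4 and Ikzf5 promoters changed between scalings, as it did at Ikzf3 without lung control replicate 2. Of the 9 peaks at or near an own start, 0 were called by genotype with edgeR (4 of 27 tests had an unadjusted p below 0.05) and 1 by tissue, a lesser Ikzf2 peak (Ikzf2_48, chr1:69683039-69683480) that was lower in lung among Vps34-deficient Tregs.

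Summed over all peaks of a gene, the largest fold of the 5 genes in any comparison was -0.35 on the log2 scale, at Aiolos by genotype in lung. This is under the minimum fold for a call. Ikaros gave 295 and 299.9 CPM in spleen control, 297, 334, 338 and 329.7 in spleen Vps34-deficient, 257 and 258 in lung control and 322 and 272 in lung Vps34-deficient Tregs. Ordered by mean, spleen Vps34-deficient (325 ± 18.5, SD, n = 4) stood above spleen control (298 ± 3.29, n = 2), lung Vps34-deficient (297 ± 35.6, n = 2) and lung control (257 ± 0.574, n = 2), and the middle groups overlapped. The average genotype effect on Ikaros was 0.18 ± 0.05 with adjusted p = 0.0457 over 17643 genes, below the minimum fold for a call. The adjusted p rose above 0.05 in 8 of the 10 fits without a single library, up to 0.137, with spleen Vps34-deficient replicate 1 and lung Vps34-deficient replicate 2 as the exceptions.

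Helios gave 378 and 415 CPM in spleen control, 359, 382, 393 and 390.5 in spleen Vps34-deficient, 319 and 394 in lung control and 308 and 289 in lung Vps34-deficient Tregs. Lung Vps34-deficient Tregs (299 ± 13.3) were the lowest group and did not overlap any other, while the other 3 overlapped each other. The tissue effect on Helios was -0.28 ± 0.07 among Vps34-deficient Tregs (adjusted p = 0.0120) and -0.20 ± 0.06 on average (adjusted p = 0.0114), again short of the minimum fold. Without lung Vps34-deficient replicate 2 these adjusted p-values rose above 0.05, and the average effect did so also without replicate 1 of that group.

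Aiolos gave 192 and 205 CPM in spleen control, 173, 194, 202 and 218 in spleen Vps34-deficient, 191 and 245 in lung control and 178 and 155 in lung Vps34-deficient Tregs. Lung control (218 ± 38.5) stood highest and lung Vps34-deficient (167 ± 15.9) lowest, with the spleen groups between them at 198 ± 8.96 and 197 ± 18.4. The difference by genotype in lung was -0.35 ± 0.11 with adjusted p = 0.0840. With single libraries left out, this difference ran from -0.49, without lung control replicate 1, to -0.18. Eos gave 115 and 115 CPM in spleen control, 110, 128, 129 and 140 in spleen Vps34-deficient, 113 and 133 in lung control and 136 and 119 in lung Vps34-deficient Tregs, where spleen control lay below lung Vps34-deficient and every other pair of groups overlapped. Pegasus gave 83.0 and 84.3, then 74.6, 79.5, 70.9 and 81.4, then 81.0 and 90.7, then 81.6 and 74.5 CPM, with the control groups above the spleen Vps34-deficient group apart from 1 lung control library.

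Of the 5 genes, 0 were called in any of the 6 comparisons by edgeR, and DESeq2 also gave 0. In edgeR, 7 of the 30 tests had an unadjusted p below 0.05. Of all 17643 genes, from 1775 (genotype in spleen) to 7415 (average tissue effect) were below that level in a comparison. Among all genes the shares called were 0.176% by genotype in spleen, 1.97% by genotype in lung, 8.31% by tissue in control and 9.64% by tissue in Vps34-deficient Tregs, and 2.45% and 11.6% for the average genotype and tissue effects. The changes described next therefore concern single regions within genes whose summed accessibility was not called.

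**Figure D1:**
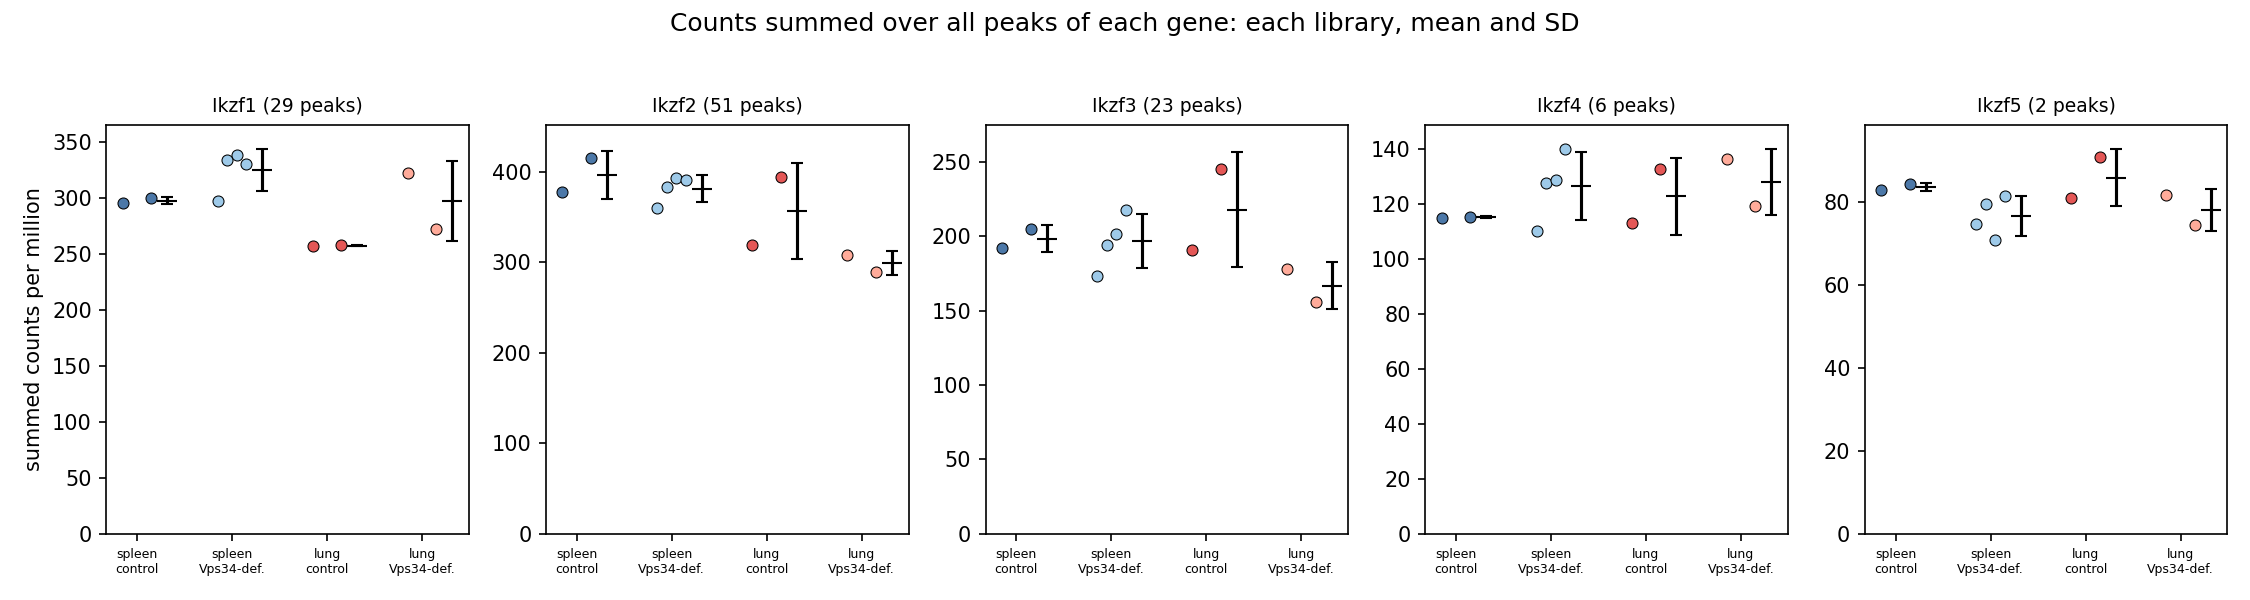
CPM summed over all peaks of each Ikaros family gene, one point per library, with the mean and SD of each group beside the points. Helios in lung Vps34-deficient Tregs (308 and 289 CPM) lies below every other Helios value, and the Ikaros values of lung control (257 and 258 CPM) lie below the other Ikaros values.

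Loss of Vps34 in lung Tregs was accompanied by lower accessibility at 11 family peaks and higher accessibility at 1. The 11 lay in Ikzf3 (6 of 23 peaks) and Ikzf2 (5 of 51), and the single higher peak lay in Ikzf1. That is 9.91% of members lower and 0.901% higher, against 3.74% and 1.22% of all tested peaks. No peak of Ikzf4 or Ikzf5 was called. The median log2 fold change of the members was -0.43 at Ikzf3, -0.25 at Ikzf2 and 0.31 at Ikzf1, beside 0.02 over all tested peaks. With so few libraries the values of the genotypes did not overlap at 45.8% of all peaks in lung and at 26.1% in spleen, so that a lack of overlap is common.

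The largest losses were at the neighbouring Ikzf3 intron peaks, 65.8 and 64.6 kb into the gene. Ikzf3_9 held 3.40 and 6.35 CPM in lung control Tregs and 0 and 0.423 CPM in lung Vps34-deficient Tregs, the latter from 0 and 4 counts. A count of 0 in the first of these libraries allows up to 3 fragments with both mates counted, or 0.487 CPM. The same peak held 1.56 and 2.55 CPM in spleen control and 0.835, 0.917, 0.587 and 0.861 CPM in spleen Vps34-deficient Tregs. Control libraries were thus above every Vps34-deficient library in both tissues, and the highest were lung controls. The fitted log2 fold change was -4.68 ± 0.72 in lung (adjusted p = 0.000306) and -1.35 ± 0.46 in spleen, which was not called (adjusted p = 0.146). With single libraries left out, the fold in lung ran from -9.29 to -3.47. Taken as fragments, 61 in lung control against 2 in lung Vps34-deficient Tregs gave a ratio of 28.1, with a 95% exact counting interval of 7.47 to 238 that covers counting error only.

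Ikzf3_10 followed the same order. It held 4.68 and 5.86 CPM in lung control and 0.812 and 0.212 CPM in lung Vps34-deficient Tregs, and 3.03 and 3.58 CPM in spleen control against 0.556, 1.47, 1.62 and 1.87 CPM in spleen Vps34-deficient Tregs. No Vps34-deficient library reached a control library of either tissue. The log2 fold change was -3.29 ± 0.54 in lung (adjusted p = 0.000608) and -1.24 ± 0.37 in spleen (adjusted p = 0.0981). In fragments, 64 against 6 in lung gave a ratio of 9.84 (95% interval 4.28 to 27.8). Both peaks were called lower in lung under every alternative and without any single library.

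The other Aiolos peaks called lower in lung were milder. Ikzf3_7 (chr11:98477130-98477869) held 11.4 and 22.2 CPM in lung control and 7.96 and 7.41 CPM in lung Vps34-deficient Tregs, and 13.5 and 12.3 CPM against 9.32, 10.3, 10.3 and 11.8 CPM in spleen. The groups did not overlap in either tissue. Its log2 fold change in lung was -1.17 ± 0.25, and those of Ikzf3_6, Ikzf3_19 and Ikzf3_21, also intronic, were -0.79, -1.07 and -1.47. These 4 calls were each lost with only the 2 groups compared and in 3 to 7 of the 10 fits without a single library. The call at Ikzf3_19 was also lost with DESeq2 and with median-of-ratios factors. With a minimum mean of 1 CPM, the calls at Ikzf3_19 and Ikzf3_21 were lost.

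In Helios the smallest p-values belonged to a pair of peaks in the UTR near the 3′ end of the gene. Ikzf2_4 (chr1:69533077-69533389) held 7.23 and 10.0 CPM in lung control and 3.41 and 3.39 CPM in lung Vps34-deficient Tregs, and 5.53 and 5.79 CPM against 3.20, 3.43, 3.07 and 3.45 CPM in spleen. Ikzf2_6 (chr1:69537617-69538355) held 9.14 and 16.9 CPM in lung control and 6.33 and 4.76 CPM in lung Vps34-deficient Tregs, and 9.98 and 11.3 CPM against 5.42, 7.34, 4.87 and 5.60 CPM in spleen. At both peaks every Vps34-deficient library was below every control library of its tissue. The log2 fold changes in lung were -1.38 ± 0.28 (adjusted p = 0.00434) and -1.26 ± 0.28 (adjusted p = 0.00916). Without lung control replicate 2 they were -1.07 and -0.69 (adjusted p = 0.112 and 0.306). The call at Ikzf2_4 was also lost without lung Vps34-deficient replicate 1 (adjusted p = 0.0567), and that at Ikzf2_6 without replicate 2 of that group (adjusted p = 0.115) or with only the 2 groups compared (adjusted p = 0.0596). The remaining lower Helios peaks, Ikzf2_18, Ikzf2_36 and Ikzf2_46, were intronic and fell by 1.38, 1.16 and 0.76 on the log2 scale. Their calls were each lost with only the 2 groups compared and in 4 to 8 of the 10 fits without a single library. Those at Ikzf2_18 and Ikzf2_36 were also lost with DESeq2, with median-of-ratios factors and with a minimum mean of 1 CPM.

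Ikzf1_19 (chr11:11740573-11740877), 55.7 kb into the Ikaros gene, moved the other way. It held 4.68 and 4.52 CPM in lung control and 9.26 and 7.62 CPM in lung Vps34-deficient Tregs, and 6.51 and 5.92 CPM against 7.79, 7.58, 7.76 and 7.32 CPM in spleen. Vps34-deficient libraries were above the controls of their tissue at this peak. The log2 fold change was 0.86 ± 0.24 in lung (adjusted p = 0.0377), and over the alternatives and single libraries left out the adjusted p ran from 0.0222 to 0.209. It was no longer called without replicate 2 or 3 of spleen Vps34-deficient Tregs, lung control replicate 2 or lung Vps34-deficient replicate 1, with log2 fold changes of 0.78 to 1.07 over all libraries left out in turn.

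The number of lower peaks in lung changed when single libraries were left out. The share of all peaks called in those fits is not given here, so a change particular to the family cannot be told from one among all peaks. All 11 were higher in lung control replicate 2 than in replicate 1, and without replicate 2 the count fell from 11 to 2, Ikzf3_9 and Ikzf3_10. It was 7 and 5 without spleen control replicates 1 and 2, and 6 and 5 without lung Vps34-deficient replicates 1 and 2. In lung the summed promoter peaks of the myeloid list were 10.2 and 10.7 CPM in control and 6.82 and 6.35 CPM in Vps34-deficient Tregs, and those of the CD8 and NK list were 27.6 and 23.6 CPM against 33.0 and 39.6 CPM; their part in the result was not tested.

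**Figure D2:**
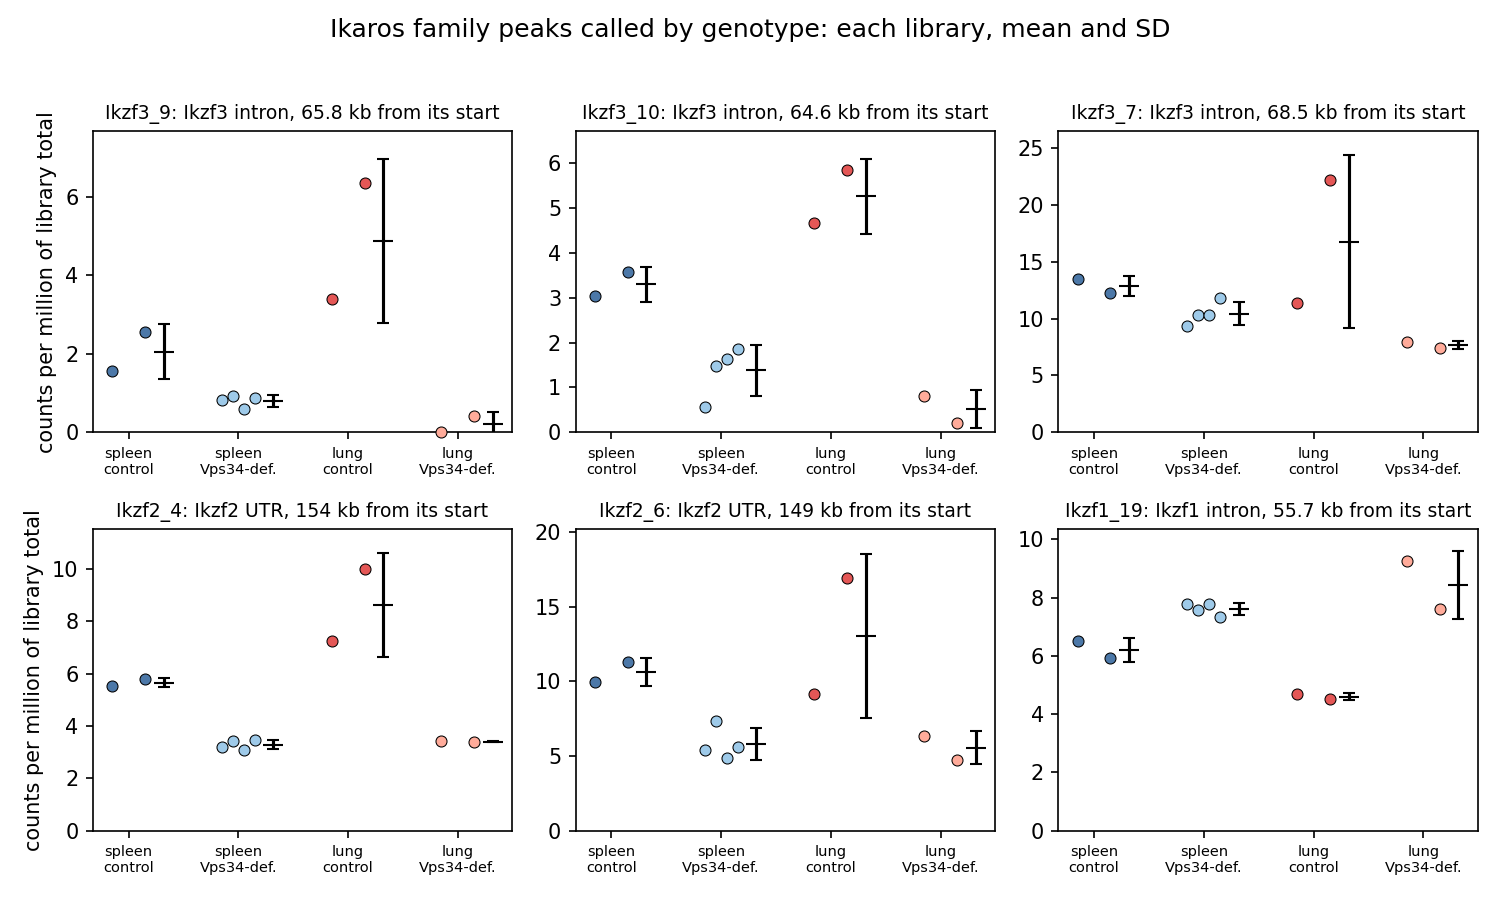
CPM at the 6 family peaks called by genotype on average over both tissues, one point per library, with the mean and SD of each group beside the points. Control libraries lie above Vps34-deficient libraries of the same tissue at the Ikzf3 and Ikzf2 peaks, and below them at Ikzf1_19.

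In spleen Tregs 0 family peaks were called by genotype with edgeR, while 0.441% of all peaks were called higher and 1.02% lower. At an unadjusted p below 0.05 in edgeR there were 12 members, against 13901 of all 97109 tested peaks. DESeq2 called 2 members higher and 1 lower, and its share over all peaks is not given here. The smallest adjusted p was 0.0538, at Ikzf2_6, where the log2 fold change was -0.87 ± 0.23. It was followed by Ikzf3_3 (0.81 ± 0.21, adjusted p = 0.0542) and Ikzf2_40 (1.18 ± 0.31, adjusted p = 0.0553). The 11 peaks called lower in lung were all below 0 on the log2 scale in spleen, from -1.35 to -0.07 with a median of -0.30. Over all peaks called lower in lung, 93.1% were negative in spleen with a median of -0.54. The lung and spleen comparisons share no library, but they come from the same fit, and the labels do not say whether they share mice.

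Averaged over both tissues, 5 peaks were lower and 1 was higher in Vps34-deficient Tregs (4.50% and 0.901% of members, against 4.06% and 3.52% of all peaks). The lower peaks were Ikzf2_6 (-1.03 ± 0.18, adjusted p = 0.000624), Ikzf2_4 (-1.02 ± 0.19, adjusted p = 0.000950), Ikzf3_10 (-1.93 ± 0.36, adjusted p = 0.00101), Ikzf3_9 (-2.35 ± 0.47, adjusted p = 0.00214) and Ikzf3_7 (-0.65 ± 0.18, adjusted p = 0.0223). The first 4 of these kept an adjusted p below 0.05 without any single library and under every alternative, while Ikzf3_7 lost its call without lung control replicate 2 or either lung Vps34-deficient library (adjusted p up to 0.0948). The higher peak was Ikzf1_19 (0.51 ± 0.16, adjusted p = 0.0468), which lost its call when any of the 10 libraries was left out.

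The interaction test asked whether the genotype effect differed between lung and spleen. It called 0 of the 111 members and 0% of all peaks with edgeR, and DESeq2 likewise called 0 members. In edgeR, 13 members had an unadjusted p below 0.05, against 7060 of all 97109 tested peaks. The smallest p-value belonged to Ikzf3_9, whose effect was lower in lung than in spleen by a log2 difference of -3.33 ± 0.91 (adjusted p = 0.408, and 0.136 to 0.978 over the alternatives). The difference was negative at 22 of 23 Ikzf3 peaks, with a median of -0.59, at 42 of 51 Ikzf2 peaks, with a median of -0.33, and at 11 of 29 Ikzf1 peaks, with a median of 0.15. The median over all tested peaks was -0.08. A difference of the genotype effect between the tissues was therefore not called for any single family peak.

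**Figure D3:**
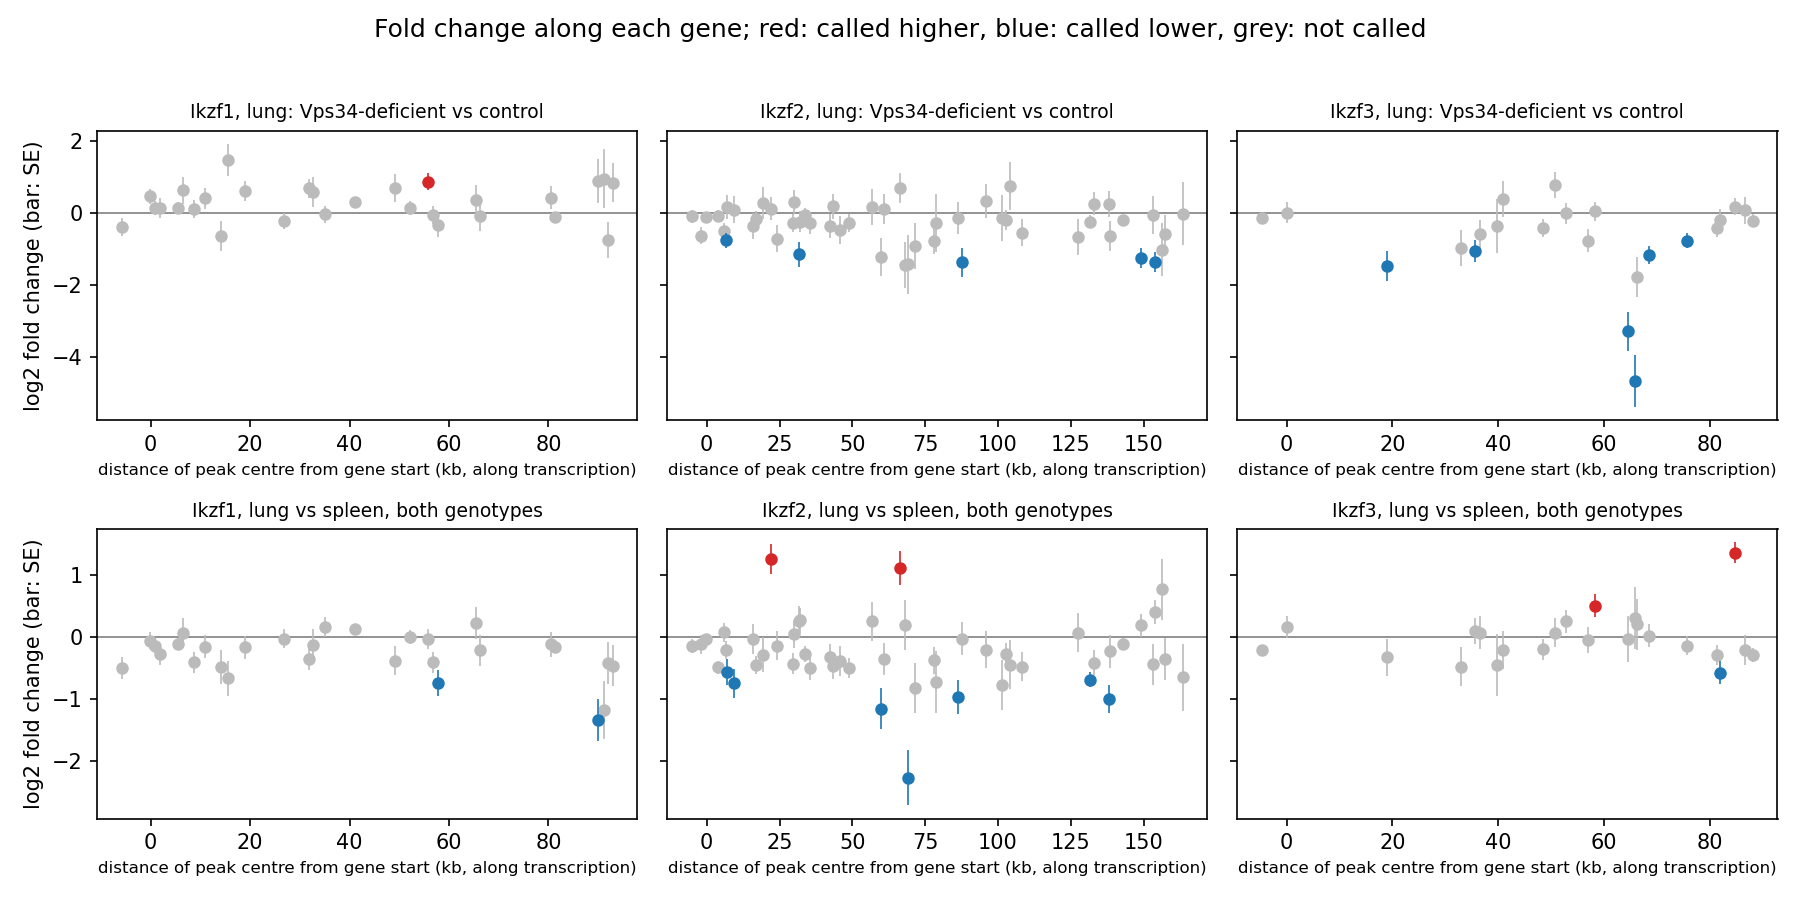
Log2 fold change of each Ikzf1, Ikzf2 and Ikzf3 peak against the distance of its centre from the gene start in kb, for Vps34-deficient against control in lung (upper row) and lung against spleen (lower row), with bars showing the SE. Red points were called higher, blue points lower and grey points not called, and the deepest losses by genotype are the neighbouring Ikzf3 peaks near 65 kb.

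The comparison of tissues asked where lung Tregs differ from spleen Tregs, and the share of family peaks called higher in lung was below that of all peaks in each of the 3 tests. Among control Tregs 4 peaks were higher and 4 lower in lung (3.6% each, against 11.8% and 3.53% of all peaks). Among Vps34-deficient Tregs 4 were higher and 8 lower (3.6% and 7.21%, against 12.5% and 4.72%). On average over genotypes 5 were higher and 11 lower (4.50% and 9.91%, against 18.4% and 6.51%). The values of the tissues did not overlap at 58.2% of all peaks in control and at 42.3% in Vps34-deficient Tregs. Over the libraries of both genotypes they did not overlap at 15.8% of all peaks. Averaged over genotypes, the median log2 difference was -0.32 at Ikzf2, -0.16 at Ikzf1 and -0.05 at Ikzf3, beside -0.01 over all tested peaks. With offsets against GC content the counts were 2 higher and 8 lower in control, 1 and 16 in Vps34-deficient and 2 and 21 on average. With library size alone they were 3 and 5, 4 and 13, and 4 and 18. The shares of all peaks called in those fits are not given here, so these counts have no background beside them.

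Ikzf3_3, 3.47 kb beyond the 3′ end of Aiolos and nearest to the start of Grb7, which encodes an adaptor protein of receptor tyrosine kinases, had the smallest p-value by tissue among the members. It held 4.81 and 5.72 CPM in spleen control, 8.49, 10.8, 7.49 and 9.98 CPM in spleen Vps34-deficient, 20.4 and 13.2 CPM in lung control and 19.2 and 18.8 CPM in lung Vps34-deficient Tregs. Every lung library was above every spleen library. The log2 difference was 1.74 ± 0.24 in control (adjusted p = 6.61e-05), 1.10 ± 0.19 in Vps34-deficient Tregs (adjusted p = 0.000303) and 1.37 ± 0.16 on average (adjusted p = 6.12e-07), and it was called under every alternative and without any single library.

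Ikzf2_40, 21.9 kb into the Helios gene, held 1.43 and 2.20 CPM in spleen control, 4.31, 3.24, 4.15 and 4.45 CPM in spleen Vps34-deficient, 8.72 and 4.23 CPM in lung control and 7.15 and 6.77 CPM in lung Vps34-deficient Tregs. Lung and spleen libraries did not overlap within either genotype, although lung control replicate 2 lay among the spleen Vps34-deficient values. The log2 difference was 1.91 ± 0.35 in control (adjusted p = 0.000613), 0.84 ± 0.27 in Vps34-deficient Tregs (adjusted p = 0.0337) and 1.26 ± 0.24 on average (adjusted p = 0.000240). The call in Vps34-deficient Tregs was lost with GC offsets (0.71, adjusted p = 0.0667) and without spleen Vps34-deficient replicate 1, 2 or 3 or either lung Vps34-deficient library (adjusted p up to 0.138), while those in control and on average were kept under every alternative. At both peaks spleen Vps34-deficient values lay above spleen control values, which gave the positive but uncalled genotype effects in spleen listed above.

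Ikzf5_1, 8.58 kb into the Pegasus gene, held 0.802 and 0.964 CPM in spleen control, 2.09, 1.83, 1.44 and 2.01 CPM in spleen Vps34-deficient, 3.83 and 2.82 CPM in lung control and 3.98 and 3.81 CPM in lung Vps34-deficient Tregs. All lung libraries were above all spleen libraries. The log2 difference was 1.98 ± 0.41 in control (adjusted p = 0.00200), 1.14 ± 0.32 in Vps34-deficient Tregs (adjusted p = 0.0156) and 1.47 ± 0.27 on average (adjusted p = 0.000152). This peak has a GC content of 29.0%, and with offsets against GC content the differences became 0.76, -0.0446 and 0.27 and none was called. The control call was also lost without spleen control replicate 1 (adjusted p = 0.0614), and the Vps34-deficient call without spleen Vps34-deficient replicate 3, lung Vps34-deficient replicate 1 or lung Vps34-deficient replicate 2 (adjusted p = 0.0609, 0.0805 and 0.0575). Ikzf3_11 (chr11:98487512-98488056), in an intron of Aiolos, was called higher in lung among controls by 0.82 ± 0.26 (adjusted p = 0.0351, and 0.0290 to 0.254 over the alternatives). That call was lost without either spleen control, either lung control, or spleen Vps34-deficient replicate 2 or 3, with differences of 0.56 to 0.88. It held 6.06 and 5.92 CPM in spleen control, 5.56, 9.91, 9.21 and 11.1 CPM in spleen Vps34-deficient, 8.93 and 11 CPM in lung control and 11.4 and 9.53 CPM in lung Vps34-deficient Tregs.

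Helios held 7 of the 11 peaks that were lower in lung on average, or 13.7% of its 51 peaks, against 6.51% of all peaks. Ikzf2_11 (chr1:69555483-69556136), 131 kb into the gene, held 21.8 and 28.6 CPM in spleen control, 24.1, 19.9, 23.6 and 24.3 CPM in spleen Vps34-deficient, 13.8 and 17.0 CPM in lung control and 14 and 12.5 CPM in lung Vps34-deficient Tregs. Every lung library was below every spleen library. Its log2 difference was -0.62 ± 0.18 in control (adjusted p = 0.0186), -0.74 ± 0.16 in Vps34-deficient Tregs (adjusted p = 0.00259) and -0.69 ± 0.12 on average (adjusted p = 0.000101). The control call was lost without spleen control replicate 2 (-0.47, adjusted p = 0.149) or lung control replicate 1 (-0.56, adjusted p = 0.0766) and with only the 2 groups compared (-0.65, adjusted p = 0.0561), and the Vps34-deficient call without lung Vps34-deficient replicate 2 (-0.60, adjusted p = 0.0589). The average was called without any single library.

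Ikzf2_23 (chr1:69617978-69618228), 69.1 kb into the gene, was a weak peak of 1.16 and 2.00 CPM in spleen control and 1.53, 1.9, 2.17 and 1.72 CPM in spleen Vps34-deficient Tregs. It fell to 0.425 and 0.564 CPM in lung control and 0.162 and 0.212 CPM in lung Vps34-deficient Tregs, where each library held 2 counts. The log2 difference was -3.21 ± 0.65 among Vps34-deficient Tregs (adjusted p = 0.00129) and -2.26 ± 0.45 on average (adjusted p = 0.000402), and with so few counts its size is imprecise. The other Helios peaks called lower in lung were Ikzf2_9, Ikzf2_19, Ikzf2_27, Ikzf2_44 and Ikzf2_45 on average, by -1.15 to -0.56, and Ikzf2_48 among Vps34-deficient Tregs, by -0.52. Ikzf2_25 was higher in lung by 1.36 among Vps34-deficient Tregs and 1.11 on average, and neither was called with GC offsets. Its call among Vps34-deficient Tregs was also lost with replicate number as a covariate and without lung Vps34-deficient replicate 1. The calls at Ikzf2_45 and Ikzf2_48 were each lost in 4 of the 10 fits without a single library, and that at Ikzf2_44 without spleen control replicate 2.

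In Ikaros the shares of its 29 peaks called lower in lung were 10.3% in control, 6.9% in Vps34-deficient Tregs and 6.9% on average, against 3.53%, 4.72% and 6.51% of all peaks. Ikzf1_26 (chr11:11774868-11775102), 1.94 kb beyond the 3′ end and nearest to the start of Fignl1, held 1.96 and 2.07 CPM in spleen control, 2.92, 2.81, 2.62 and 2.51 CPM in spleen Vps34-deficient, 1.06 and 0.282 CPM in lung control and 1.62 and 0.635 CPM in lung Vps34-deficient Tregs. All lung libraries were below all spleen libraries, and the average log2 difference was -1.34 ± 0.34 (adjusted p = 0.00425). Ikzf1_21 (chr11:11742711-11743058) held 6.68 and 6.2, then 4.31, 7.77, 6.59 and 7.61, then 5.53 and 3.10, then 3.74 and 2.96 CPM in the same order of groups, with an average difference of -0.74 ± 0.21 (adjusted p = 0.0101). Its spleen and lung values overlapped, and the average was not called with replicate number as a covariate (-0.67, adjusted p = 0.0535). The call in control at Ikzf1_26 (-1.61) was lost in 5 of the 10 fits without a single library. So was the call among Vps34-deficient Tregs at Ikzf1_21 (-0.91).

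Among controls alone, Ikzf1_13 (chr11:11716520-11717048) held 7.22 and 8.27 CPM in spleen and 3.72 and 4.73 CPM in lung, against 7.79, 6.48, 8.62 and 6.75 CPM and 7.15 and 6.77 CPM in Vps34-deficient Tregs. Ikzf1_10 (chr11:11700496-11700772) held 3.07 and 2.89 CPM in control spleen and 0.851 and 1.34 CPM in control lung, against 3.27, 5.63, 2.80 and 4.16 CPM and 3.90 and 2.33 CPM in Vps34-deficient Tregs. At both peaks the control lung libraries stood below all others. The differences in control were -0.78 ± 0.25 (adjusted p = 0.0366) and -1.32 ± 0.43 (adjusted p = 0.0392). Both calls were lost without spleen control replicate 1 or 2 or lung control replicate 1, and that at Ikzf1_10 also without spleen Vps34-deficient replicate 4, with adjusted p-values of up to 0.135 and 0.152 and differences of -1.07 to -0.71 and -1.82 to -1.15. With only the 2 groups compared they were lost too (adjusted p = 0.0762 and 0.0675). The genotype comparison in lung uses the same lung control libraries, and its values at these peaks were 0.68 ± 0.26 and 1.46 ± 0.45, neither called.

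Upstream of Ikaros, Ikzf1_1 (chr11:11678781-11679576) held 8.11 and 10.3 CPM in spleen control and 8.76, 10.6, 14.7 and 9.76 CPM in spleen Vps34-deficient Tregs, against 7.87 and 8.04 CPM in lung control and 6.50 and 5.72 CPM in lung Vps34-deficient Tregs. Lung was below spleen in both genotypes, and the difference was called among Vps34-deficient Tregs (-0.79 ± 0.22, adjusted p = 0.0155). Downstream of Aiolos, Ikzf3_4 (chr11:98463740-98464312) held 6.82 and 5.79, then 5.84, 5.75, 7.04 and 6.03, then 4.04 and 4.52, then 4.55 and 2.96 CPM, and was lower in lung on average by -0.57 ± 0.18 (adjusted p = 0.0203). Downstream of Eos and nearest to the start of Rps26, a ribosomal protein gene, Ikzf4_1 (chr10:128625306-128625575) held 2.54 and 2.62, then 2.50, 3.30, 3.34 and 3.52, then 1.70 and 2.05, then 1.46 and 1.06 CPM. Its difference was -1.26 ± 0.36 among Vps34-deficient Tregs (adjusted p = 0.0166) and -0.84 ± 0.27 on average (adjusted p = 0.0222), and no lung value reached a spleen value. The calls at Ikzf1_1 and Ikzf4_1 were lost without either lung Vps34-deficient library, with differences of -0.94 to -0.65 at Ikzf1_1 and -1.47 to -1 at Ikzf4_1 among Vps34-deficient Tregs. That at Ikzf3_4 was lost without lung Vps34-deficient replicate 2, with differences of -0.69 to -0.45.

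**Figure D4:**
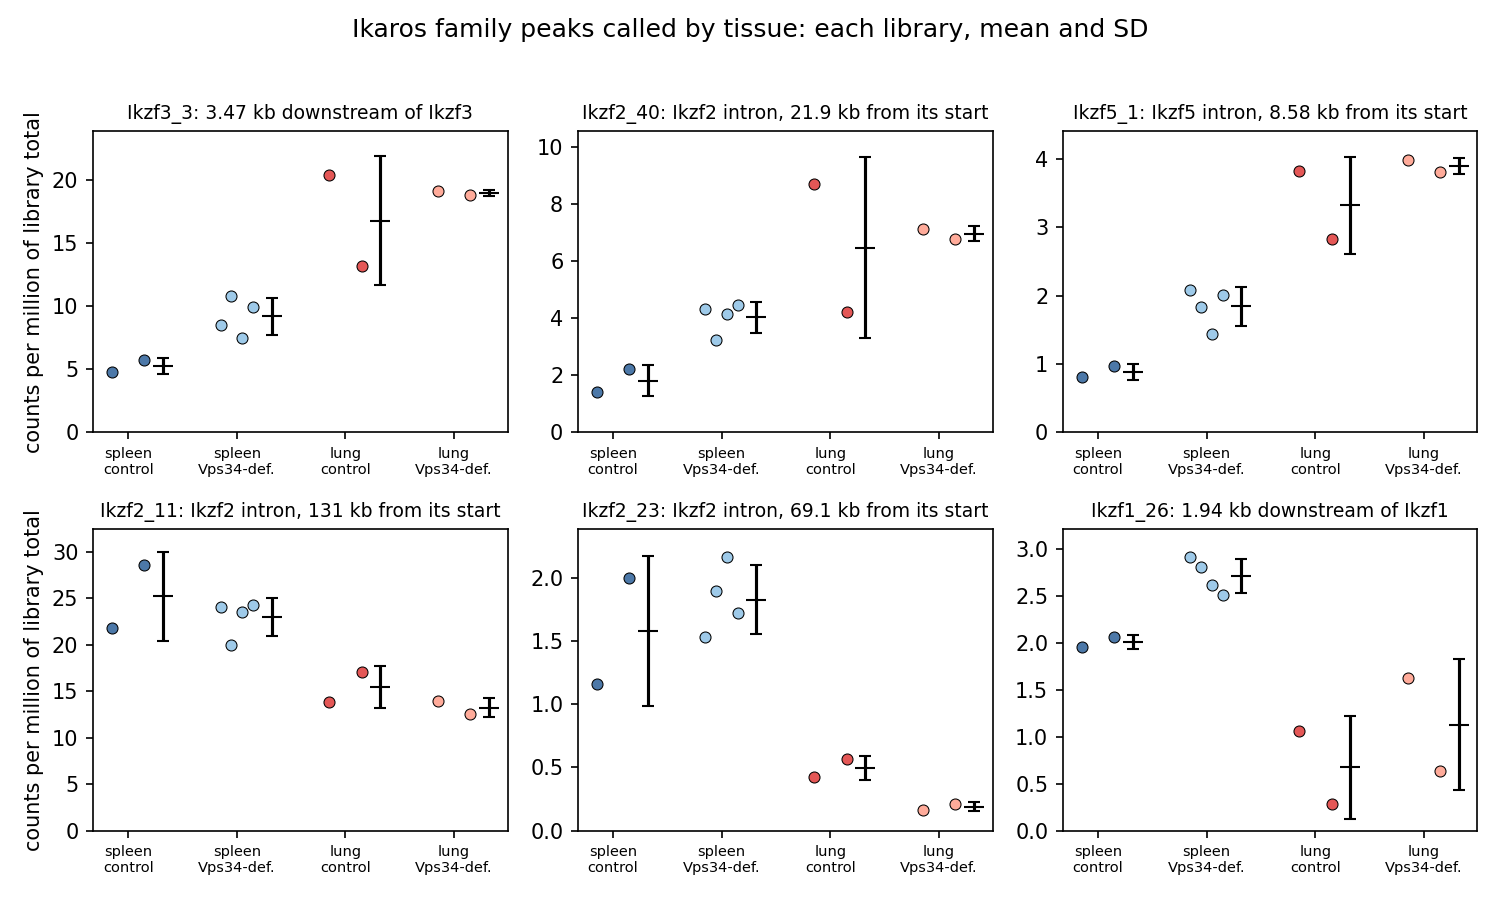
CPM at 6 family peaks called by tissue, one point per library, with the mean and SD of each group beside the points. At Ikzf3_3 and Ikzf5_1 all lung libraries lie above all spleen libraries, and at Ikzf2_11, Ikzf2_23 and Ikzf1_26 all lie below.

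The genes encoding partners of Ikaros proteins were also measured. Of 16 corepressor genes of the NuRD, Sin3 and CtBP complexes, 0 were called by edgeR in any comparison at the level of summed counts, with 20 of 96 tests at an unadjusted p below 0.05. Their 108 peaks gave 1 higher and 5 lower by genotype in lung (1.22% and 3.74% among all peaks), and 12 higher and 6 lower by tissue on average (18.4% and 6.51% among all peaks), shares that were near or below those of all peaks. The smallest gene-level p-values for the average genotype effect belonged to Mta3, a NuRD subunit (-0.19 ± 0.06, adjusted p = 0.0541), and Chd3, a NuRD helicase (-0.32 ± 0.10, adjusted p = 0.0728). By genotype in lung alone Mta3 gave -0.33 ± 0.08 (adjusted p = 0.0255), under the minimum fold, and Chd3 gave -0.52 ± 0.15 (adjusted p = 0.0758). For the average tissue effect the smallest p-values belonged to Rbbp4, a histone-binding subunit (0.27 ± 0.06, adjusted p = 0.00127), and Mta3 (0.23 ± 0.06, adjusted p = 0.00603), both under the minimum fold.

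The cereblon ubiquitin ligase of human cells degrades Ikaros and Aiolos when bound by thalidomide analogues, an activity that the mouse protein lacks. Of its 5 genes 0 were called in any comparison at the level of summed counts with edgeR, with 8 of 30 tests at an unadjusted p below 0.05, and of their 19 peaks 1 was higher and 1 lower by tissue on average (18.4% and 6.51% among all peaks). For the average genotype effect the smallest p-values belonged to Cul4a, the cullin scaffold (-0.15 ± 0.06, adjusted p = 0.125), and Crbn, the substrate receptor (0.03 ± 0.05, adjusted p = 0.767). For the average tissue effect they belonged to Cul4a (-0.30 ± 0.06, adjusted p = 0.000917) and Ddb1, the adaptor (-0.32 ± 0.07, adjusted p = 0.00266), again under the minimum fold.

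The genes whose summed accessibility followed each family gene most closely over the 10 libraries were found among autosomal protein-coding genes with at least 3 peaks. For Ikzf1 these were Eif4e3 (Pearson r = 0.971), Asap1 (0.948) and Cdk19 (0.947). For Ikzf2 they were Rabepk (0.973), Abca7 (0.973) and Apeh (0.972), and for Ikzf3 they were Fnbp1 (0.985), Dnajb1 (0.974) and Tprn (0.973). For Ikzf4 they were Nfkbia (0.959), the NF-kB inhibitor, Aff3 (0.942) and Prcd (0.937), and for Ikzf5 they were Snrnp25 (0.939), Ctsa (0.900) and Faxc (0.892). The values share libraries and depth, and the genes are the highest of at least 11937 compared, so the coefficients are descriptive.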

How the data were processed

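ATAC-seq had been run on Tregs of spleen and lung at 10 days of age. The authors deposited whole-number counts of nucleosome-free reads per peak over a merged peak set, and per the submitters' processing notes the tools included cutadapt 1.9, Picard 1.65 and MACS2 2.1.0.20150603. The study's methods name mm9, but the processing notes name mm10 and the scaffold names in the deposited counts are those of GRCm38, which was used. Deposited starts count from 0 and are printed from 1. Groups came from the labels. The B cell marker list is not reported here.

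From these counts, edgeR 4.0.16 in R 4.3.3 was fitted to all peaks (filterByExpr, TMM factors, quasi-likelihood test, 4 group means, or tissue plus genotype for averages), with Benjamini-Hochberg adjustment over all 97109 tested peaks. Counts were also summed per gene and fitted for 17643 genes. The biological coefficient of variation was 17.8%. The scripts were tested on simulated data. Replicates of a group differed by more than sampling noise (a chi-square of 1.40 to 2.98 per degree of freedom with halved counts), so each library counted once. CPM used each library's total.

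The members and gene lists were chosen with earlier results of these data known. Named peaks were each gene's strongest promoter peak, per gene and comparison the 2 called peaks of smallest p-value, and the peak with the smallest interaction p-value. From each partner list, the 2 genes with the smallest gene-level p-value by average genotype and tissue were named. All other called peaks are named too, after their values were seen. Alternatives were library size alone, median-of-ratios factors, DESeq2 1.42.0, other filters, halved counts, a replicate block, chromosome Y signal, GC offsets, pairwise fits, no minimum fold, a window of 5 kb and each library left out. Sequences are from RefSeq GRCm38, read with samtools 1.23.1.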

Additional observations from a re-analysis of the deposited data

Results flagged for a closer look

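Of 28 sets of 4 spleen Vps34-deficient values at the named peaks and genes, 1 held a library apart from the others. At Ikzf2_11, the Helios intron peak that was lower in lung, replicate 2 held 19.9 CPM while the highest library of the group held 24.3 CPM, and the gap to the nearest library took 0.838 of the range, above Dixon's 95% critical value for 4 libraries. Chance gives about 1 such set in 20.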

How the results depend on the processing

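Of 959 recomputed values for single peaks and genes, 839 kept their direction and their side of the threshold (for summed genes, an adjusted p of 0.05 alone), 90 kept the direction but no longer passed it, 2 came to pass it (summed Aiolos by genotype in lung, under the minimum fold) and 28 changed sign. By genotype in spleen, 0 peaks became 1 lower with library size alone, median-of-ratios factors, no filter or a minimum mean of 1 CPM. There were 1 higher and 1 lower with halved counts or chromosome Y signal as a covariate, 2 and 1 with DESeq2 or GC offsets, and 2 and 3 with only the 2 groups compared. By genotype in lung, 1 higher and 11 lower became 2 and 7 with a minimum mean of 1 CPM, 0 and 3 with only the 2 groups compared, and 2 higher with GC offsets. By tissue in control, 4 lower became 0 with only the 2 groups compared, and GC offsets gave 2 higher and 8 lower. By tissue in Vps34-deficient Tregs, 8 lower became 13 with library size alone and 14 with no filter, and GC offsets gave 1 higher and 16 lower. For the average genotype effect, 1 higher became 2 with library size alone, median-of-ratios factors, DESeq2, a minimum mean of 1 CPM or no minimum fold change and 0 with halved counts, while no filter gave 0 higher and 9 lower. For the average tissue effect, 11 lower became 18 with library size alone or no filter, and GC offsets gave 2 higher and 21 lower. With no minimum fold change, 3 of the gene-level tests passed. The causes of these differences were not tested. The shares of all peaks called in these settings, or with libraries left out, are not given beside the counts.

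Leaving out each library in turn gave 0 to 2 higher and 0 to 2 lower by genotype in spleen, 0 to 3 higher and 2 to 12 lower by genotype in lung, 2 to 5 higher and 0 to 6 lower by tissue in control, 1 to 4 higher and 3 to 14 lower by tissue in Vps34-deficient Tregs, 0 to 2 higher and 4 to 8 lower for the average genotype effect, and 4 to 5 higher and 10 to 22 lower for the average tissue effect. The interaction gave 0 in every setting. A lone library left in a group was assumed to vary like the other groups.

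Among the peaks named by rule, signs changed at 5 promoter peaks and at Ikzf5_1. The average tissue effect at Ikzf4_5 was -0.064 with library size alone, -0.0214 with median-of-ratios factors, -0.0212 with DESeq2, -0.068 with no filter, -0.036 with halved counts and -0.0096 with chromosome Y signal, and ran from -0.145 to 0.106 with libraries left out. At Ikzf5_2 it was -0.00582 with library size alone and -0.0102 with no filter, and ran from -0.0299 to 0.0964. At Ikzf2_49 it was 0.0155 with the replicate block and 0.0189 with GC offsets, and ran from -0.124 to 0.0063. At Ikzf3_22 it ran from -0.101 to 0.308. The average genotype effect at Ikzf1_3 was 0.00747 with the replicate block and ran from -0.145 to 0.0531. The tissue effect at Ikzf5_1 among Vps34-deficient Tregs was -0.0446 with GC offsets, and the median of all peaks moved by at most -0.06 in these comparisons under those offsets.

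Deviations of libraries with the same replicate number had correlations of -0.098 to 0.063, and of -0.012 to 0.038 where the genotype was also the same. In a group with only a pair of libraries the deviations mirror each other, so these correlations cannot exclude pairing. The main fits did not treat libraries as paired. Chromosome Y signal was high in both or low in both of the spleen and lung libraries that share genotype and number, in 4 of 4 such pairs, and the labels do not say whether these came from the same mouse. With the replicate block, the calls by genotype in lung were 0 higher and 5 lower, by tissue in control 1 lower, by tissue in Vps34-deficient Tregs 1 higher and 4 lower, and for the average genotype effect 0 higher. Among the peaks named by rule, those no longer called under the block were Ikzf1_19 by genotype in lung and on average (adjusted p = 0.0986 and 0.0837), Ikzf1_13, Ikzf1_10 and Ikzf3_11 by tissue in control (0.0718, 0.0621 and 0.0636), Ikzf1_1, Ikzf1_21, Ikzf4_1 and Ikzf5_1 by tissue in Vps34-deficient Tregs (0.147, 0.179, 0.126 and 0.139; also Ikzf2_40, outside the rule, with 0.119) and Ikzf1_21, Ikzf3_4 and Ikzf4_1 by tissue on average (0.0535, 0.0814 and 0.0903). Outside the rule, the block also ended the calls at Ikzf2_18, Ikzf2_36, Ikzf2_46, Ikzf3_6, Ikzf3_19 and Ikzf3_21 by genotype in lung. By tissue it ended those at Ikzf1_26 in control, Ikzf2_25 and Ikzf2_27 in Vps34-deficient Tregs and Ikzf2_45 on average. The adjusted p also rose above 0.05 for summed Ikaros by average genotype (0.132) and summed Helios by tissue in Vps34-deficient Tregs (0.112).

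Depth limited the weakest peaks, with 4 counts or fewer in both lung Vps34-deficient libraries at Ikzf3_9 and 2 in each at Ikzf2_23. At Ikzf1_26 the lung libraries held 4 to 20 counts.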
